A study of Mus musculus with 4 samples.

Results

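Interferon-linked PARPs were followed in T cells from the spleens of mice that carried interleukin-27 (IL-27) made from a virus. They were taken as the rows of the deposited expression table whose symbol is Parp9, Dtx3l, Parp14, Parp12, Parp10 or Parp1, and all 6 genes were found among the 17039 in the table. Parp1 is included as the family member of DNA repair. The 4 libraries came from 4 C57BL/6 mice: in the AAV-IL-27 group, 2 mice carried a recombinant adeno-associated virus (AAV) expressing IL-27, and in the AAV-ctrl group 2 carried a control recombinant virus. Both groups received the virus in muscle, and T cells were separated from the spleen by magnetic sorting (MACS) about a month later. The labels name the cells as splenic T cells, while the sample titles carry CD8 and the series title names CD8+ T cells. The age and sex of the mice, the promoter of the virus and the content of the control virus are not given in the sources used here, and cytokine made in muscle reaches T cells through the whole animal, so direct and indirect effects cannot be told apart.

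PARP proteins carry an ADP-ribosyltransferase domain that takes ADP-ribose from NAD and attaches it to proteins. Parp1 builds long chains of ADP-ribose at DNA breaks, while most other members add single units or have lost activity. Interferons induce a subset of the family through STAT and IRF transcription factors, and IL-27 is a cytokine that activates STAT proteins in T cells. Parp9 has little activity of its own and works bound to Dtx3l, a ubiquitin ligase. Parp14 carries macrodomains, which bind ADP-ribose, and was described in mouse as a cofactor of STAT6.

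Of the 6 genes, 3 lie together on mouse chromosome 16 (build GRCm38.p6, RefSeq positions). Parp14 (NCBI Gene 547253) spans bases 35831892 to 35871518 on the minus strand, Dtx3l (NCBI Gene 209200) spans 35926515 to 35939027 on the minus strand, and Parp9 (NCBI Gene 80285) spans 35938470 to 35972621 on the plus strand. Dtx3l and Parp9 start head to head, and their gene bodies share 558 bases. In the GENCODE annotation of the same build, 458 exon bases of Dtx3l are also exon of Parp9 on the other strand, 8.0% of the exon bases of Dtx3l and 9.4% of those of Parp9. No source used here says whether reads were counted by strand, so reads from this stretch cannot be assigned to a gene with certainty. The expected counts of Dtx3l and Parp9 were fractional in all 4 libraries, and those of the other 4 genes were whole in all 4.

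The other 3 genes lie apart. Parp12 (NCBI Gene 243771) is on chromosome 6, bases 39086412 to 39118349, minus strand. Parp10 (NCBI Gene 671535) is on chromosome 15, bases 76232995 to 76243440, minus strand. In the GENCODE annotation 4.8% of its exon bases are also exon of Plec on the same strand. By RefSeq positions Plec lies 1616 bases from Parp10. Parp1 (NCBI Gene 11545) is on chromosome 1, bases 180568891 to 180600999, plus strand.

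Promoter windows, 250 bases before to 50 after the start, were found in RefSeq (GRCm38.p6) for 3 of the 6 genes. They are shown 5′ to 3′ because they let the start of 2 genes that rose be read beside that of Parp1, which fell. Capitals mark the motifs found, searched on both strands: the interferon-stimulated response element GAAANNGAAA, the STAT element TTCNNNGAA and the GC box GGGCGG.
Dtx3l, chr16:35938978-35939277, minus strand: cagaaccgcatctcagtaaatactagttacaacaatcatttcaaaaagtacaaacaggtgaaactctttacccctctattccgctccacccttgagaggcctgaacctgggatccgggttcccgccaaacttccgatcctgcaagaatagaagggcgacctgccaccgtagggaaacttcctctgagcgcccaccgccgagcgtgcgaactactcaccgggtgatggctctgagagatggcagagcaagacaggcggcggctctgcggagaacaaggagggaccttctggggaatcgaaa
Parp12, chr6:39118300-39118599, minus strand: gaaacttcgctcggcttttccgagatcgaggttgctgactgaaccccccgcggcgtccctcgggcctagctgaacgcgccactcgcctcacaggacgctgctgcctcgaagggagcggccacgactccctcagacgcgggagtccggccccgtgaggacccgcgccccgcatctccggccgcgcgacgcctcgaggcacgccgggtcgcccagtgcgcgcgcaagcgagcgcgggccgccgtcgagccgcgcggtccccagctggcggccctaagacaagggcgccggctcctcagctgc
Parp1, chr1:180568641-180568940, plus strand: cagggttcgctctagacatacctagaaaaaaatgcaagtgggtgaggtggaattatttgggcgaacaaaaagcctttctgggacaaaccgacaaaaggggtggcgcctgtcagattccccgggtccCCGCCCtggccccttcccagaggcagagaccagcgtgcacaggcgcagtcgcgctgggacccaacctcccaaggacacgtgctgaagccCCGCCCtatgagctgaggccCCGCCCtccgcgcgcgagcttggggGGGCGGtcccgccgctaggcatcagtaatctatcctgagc
The Dtx3l window lies inside the body of Parp9. Neither interferon motif was found in any of the 3 windows, which says only that these letters are not in these 300 bases. Among 32851 promoter windows of that length, 3.44% held GAAANNGAAA and 8.30% held TTCNNNGAA. The capitals are all in the Parp1 window, which held 4 GC boxes, starting 124, 35 and 15 bases before the start and 10 bases after it. GC boxes were found in 35.7% of all windows. The windows held 54.3% G and C bases for Dtx3l, 73.7% for Parp12 and 62.0% for Parp1, against a median of 52.7% over all windows.

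The libraries held 15742523 to 16182453 expected counts each, and 12887 genes passed a filter on low counts, the 6 among them. The T cell genes Cd3d and Cd3e stood at 191 to 229 FPKM (fragments per length of gene and depth of library, the unit taken for the deposited per-length values) in AAV-IL-27 and 172 to 187 FPKM in AAV-ctrl. Cd8a, which marks CD8+ T cells, stood at 408 and 349 FPKM in AAV-IL-27, against 321 and 335 FPKM in AAV-ctrl, while Cd8b1, the other chain of CD8, stood at 625.5 and 546 FPKM in AAV-IL-27 and 606 and 617 FPKM in AAV-ctrl and did not pass. Of 13 T cell markers 8 rose, 1 (Thy1) fell and 4 did not pass, among them Cd3d, Cd2 and Cd5 (summed level 3591 and 3197 FPKM in AAV-IL-27, 3127 and 3169 FPKM in AAV-ctrl), and 4 or 5 rose on leaving out an AAV-ctrl library. The background for the marker counts in this paragraph is that, of all genes tested, 21.3% were higher and 17.7% lower, by the test described below. Markers of other cells were found too. All 20 marker genes of dividing cells rose (summed level 825 and 838 FPKM in AAV-IL-27, 387 and 378 FPKM in AAV-ctrl), Mki67 and Top2a among them. Of 16 neutrophil markers 14 rose, summed to 1054 and 1727 FPKM in AAV-IL-27, against 42.4 and 32.1 FPKM in AAV-ctrl, with Elane and Mpo above 0 in every library; 7 of the 16 rose when AAV-ctrl replicate 1 was left out and 5 when AAV-ctrl replicate 3 was. B cell markers summed to 827 and 1145 FPKM in AAV-IL-27, against 1860 and 1627 FPKM in AAV-ctrl, and 4 of 9 fell (9 of 9 on leaving out either AAV-IL-27 library); Ms4a1 did not pass. Of 10 natural killer markers 7 fell, Ncr1 and Klrb1c among them, and 3 rose, Eomes, Cd7 and Klrk1. The summed level of the 10 was 335 and 285 FPKM in AAV-IL-27, 273 and 278 FPKM in AAV-ctrl. Cd7 alone stood at 231 and 190 FPKM in AAV-IL-27, against 105.5 and 114 FPKM in AAV-ctrl, so the sum hides the 7 that fell. Ncr1 stood at 1.62 and 2.25 FPKM in AAV-IL-27, against 12.1 and 11.6 FPKM in AAV-ctrl. Of 12 macrophage markers 7 fell, Adgre1 among them, and 1 rose, while Csf1r did not pass (165 and 218 FPKM in AAV-IL-27, 209.8 and 169 FPKM in AAV-ctrl). Of 9 dendritic cell markers 1 fell and 2 rose, with Itgax and Flt3 not passing (365 and 306 FPKM in AAV-IL-27, 313 and 323 FPKM in AAV-ctrl), and leaving out an AAV-IL-27 library raised those that rose to 5 or 6. None of 6 erythroid markers passed, Hba-a1 and Hba-a2 included (42.0 and 77.7 FPKM in AAV-IL-27, 105 and 58.4 FPKM in AAV-ctrl). None of the markers named here was at 0 in any library, but Elane (5 and 1 counts) and Mpo (22 and 7 counts) were near it in AAV-ctrl. In bulk RNA such as this, a change in the share of a cell type and a change in RNA per cell cannot be told apart, and the part of these shifts in the results below was not tested.

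Groups were compared with edgeR's quasi-likelihood test over all 12887 genes, with Benjamini-Hochberg adjusted p-values and a threshold of 0.05. Fold changes are AAV-IL-27 over AAV-ctrl. All 6 genes changed, Parp9, Dtx3l, Parp14, Parp12 and Parp10 upward and Parp1 downward. Of all genes tested, 39.0% changed, 21.3% higher and 17.7% lower. For none of the 6 did the groups overlap, which was also true of 71.5% of all genes tested. The background split depends on scaling: 54.6% of calls were higher with TMM factors, against 44.2% with upper-quartile factors and 44.3% with library size alone. Scaled to T cell markers it was 30.6%, and Parp10 lost its call (adjusted p = 0.198). The 6 genes kept their directions under all 4, which was fixed in advance. These scalings moved the median of all genes from -0.00528 to -0.16 at most, less than the fold change of any of the 6.

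Parp9, the macrodomain partner of Dtx3l, had the largest fold change of the 6. It stood at 50.9 and 49.9 FPKM in AAV-IL-27 replicates 1 and 3, against 28.6 and 28.5 FPKM in AAV-ctrl replicates 1 and 3. Every AAV-IL-27 library lay at least 1.74-fold above every AAV-ctrl library. The fitted change was 1.83-fold (log2 fold change 0.87 ± 0.049 (SE), 95% interval 0.76 to 0.98, edgeR adjusted p = 1.86e-06), higher than that of 92.9% of the genes tested.

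Dtx3l, the ubiquitin ligase, was the most abundant of the 6 in AAV-IL-27. It stood at 57.3 and 60.1 FPKM in AAV-IL-27, against 36.2 and 34.9 FPKM in AAV-ctrl. It rose 1.71-fold (log2 fold change 0.78 ± 0.050, 95% interval 0.66 to 0.89, edgeR adjusted p = 4.33e-06), and its libraries did not come closer than 1.58-fold between groups. The ratio of Parp9 to Dtx3l, in FPKM within a library, was 0.888 and 0.829 in AAV-IL-27, against 0.792 and 0.817 in AAV-ctrl. Its log2 difference was 0.093, and the nearest libraries of the groups were 0.829 and 0.817 (exact permutation test, two-sided p = 0.33, the smallest that 2 against 2 allows).

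Parp14, the macrodomain enzyme, had the widest range between the AAV-IL-27 replicates in FPKM; in AAV-ctrl that was Parp1. It stood at 41.6 and 45.9 FPKM in AAV-IL-27, against 25.3 and 26.9 FPKM in AAV-ctrl. In each group replicate 3 was the higher, by 1.1-fold in AAV-IL-27 and 1.06-fold in AAV-ctrl, and the groups stayed at least 1.54-fold apart. It rose 1.73-fold (log2 fold change 0.79 ± 0.060, 95% interval 0.66 to 0.93, edgeR adjusted p = 1.39e-05).

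Parp12, a zinc finger protein that restricts some viruses when overexpressed in human cells, was the least abundant of the 6. Its level was 6.67 and 6.09 FPKM in AAV-IL-27, against 3.88 and 3.99 FPKM in AAV-ctrl, from 349 and 320 counts in AAV-IL-27 and 199 and 204 counts in AAV-ctrl. It had the lowest counts and the widest interval of the 6, and rose 1.68-fold (log2 fold change 0.75 ± 0.10, 95% interval 0.52 to 0.98, edgeR adjusted p = 0.000447).

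Parp10, a mono-ADP-ribosyltransferase first described in human cells as a partner of Myc, rose least. It stood at 22.6 and 21.8 FPKM in AAV-IL-27, against 17.8 and 18.4 FPKM in AAV-ctrl, and the nearest libraries were 1.18-fold apart. It rose 1.27-fold (log2 fold change 0.35 ± 0.058, 95% interval 0.22 to 0.48, edgeR adjusted p = 0.0015). The upper end of its interval lay below the lower end of the interval of each of Parp9, Dtx3l, Parp14 and Parp12, a comparison of intervals and not a test between genes. Scaled to the summed counts of the T cell markers, Parp10 did not pass (log2 fold change 0.19, adjusted p = 0.198). That scaling lowered the median of all genes from -0.00528 to -0.16. A change of scaling shifts all genes by nearly the same amount. The distance of Parp10 from the median, 0.35 under either scaling, was therefore fixed in advance and says nothing about the lost call.

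Parp1, the DNA break sensor, went the other way. It stood at 33.8 and 35.9 FPKM in AAV-IL-27, against 48.1 and 46.4 FPKM in AAV-ctrl, with no overlap. It was 1.31-fold lower in AAV-IL-27 (log2 fold change -0.39 ± 0.052, 95% interval -0.50 to -0.27, edgeR adjusted p = 0.000397), and 13.3% of the genes tested had a more negative value. The dividing-cell markers rose in the same libraries. Mki67, a protein of dividing cells, was at 52.7 and 57.6 FPKM in AAV-IL-27, against 15.01 and 14.3 FPKM in AAV-ctrl.

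**Figure D1:**
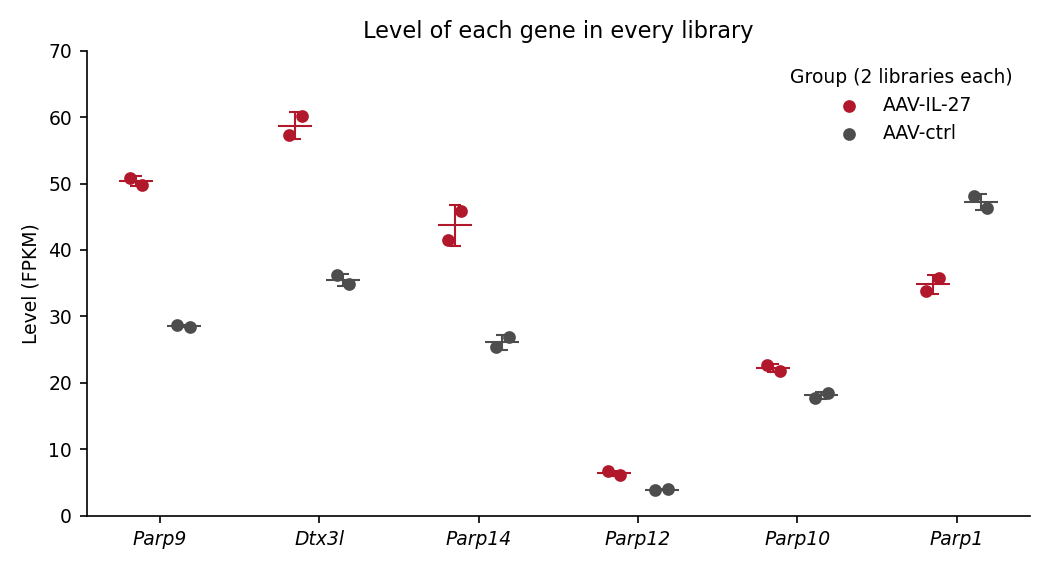
Level in FPKM (y axis) of the 6 genes (x axis) in every library: dots are libraries, horizontal lines group means and bars the SD of 2 libraries. The red AAV-IL-27 dots lie above the grey AAV-ctrl dots for 5 genes and below them for Parp1, with 33.8 and 35.9 FPKM against 48.1 and 46.4 FPKM.

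Given as mean ± SD (n = 2 libraries), Parp9 was at 50.4 ± 0.728 FPKM in AAV-IL-27 and 28.6 ± 0.12 FPKM in AAV-ctrl. Dtx3l was at 58.7 ± 2.01 FPKM in AAV-IL-27 and 35.5 ± 0.926 FPKM in AAV-ctrl. Parp14 was at 43.8 ± 3.08 FPKM in AAV-IL-27 and 26.1 ± 1.15 FPKM in AAV-ctrl. For these 3 genes the gap between the group means was several times either SD, which also held for the other 3. Parp12 was at 6.38 ± 0.41 FPKM in AAV-IL-27 and 3.94 ± 0.0778 FPKM in AAV-ctrl. Parp10 was at 22.2 ± 0.594 FPKM in AAV-IL-27 and 18.1 ± 0.467 FPKM in AAV-ctrl. Parp1 was at 34.8 ± 1.42 FPKM in AAV-IL-27 and 47.2 ± 1.23 FPKM in AAV-ctrl.

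The order of the 6 genes by level changed between groups. In both AAV-IL-27 libraries it was Dtx3l, Parp9, Parp14, Parp1, Parp10 and Parp12, and in both AAV-ctrl libraries Parp1, Dtx3l, Parp9, Parp14, Parp10 and Parp12. Parp1 thus had rank 4 of the 6 in AAV-IL-27 and rank 1 in AAV-ctrl. All neighbours in these orders were separated by more than the range of their replicates, except Parp9 and Parp14, whose nearest libraries were 3.93 FPKM apart in AAV-IL-27, less than the 4.36 FPKM between the Parp14 libraries, and 1.54 FPKM apart in AAV-ctrl, less than 1.62 FPKM. The ratio of Parp14 to Parp1 within a library, which no library scaling can alter, was 1.23 and 1.28 in AAV-IL-27, against 0.526 and 0.581 in AAV-ctrl. Its log2 value was higher by 1.18 (exact permutation test, two-sided p = 0.33, the smallest possible here).

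Replicates of AAV-IL-27 differed less in these genes than in neutrophil and B cell markers. Replicate 3 over replicate 1 was 0.98 for Parp9, 1.05 for Dtx3l, 1.1 for Parp14, 0.913 for Parp12, 0.963 for Parp10 and 1.06 for Parp1. The same ratio was 1.64 for the summed neutrophil markers, 1.39 for B cell markers and 1.02 for dividing-cell markers.

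Across the PARP family, 6 of 16 genes rose (37.5%, against 21.3% of all genes tested), 4 fell (25%, against 17.7%) and 6 did not pass, with a median log2 fold change of 0.03, against -0.00528 over all genes tested. Besides the 4 described, those that rose were Parp3, which acts at DNA double-strand breaks (0.31 ± 0.054, edgeR adjusted p = 0.00171), and Zc3hav1, an antiviral RNA-binding member without catalytic activity (0.19 ± 0.046, adjusted p = 0.00882). The call of Zc3hav1 was lost on leaving out AAV-ctrl replicate 1 (adjusted p = 0.0791), and likewise replicate 3 of that group (adjusted p = 0.123). Zc3hav1 was the most abundant family member in every library, at 115 and 111 FPKM in AAV-IL-27 and 101 and 100.1 FPKM in AAV-ctrl.

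Parp1 had company among the genes that fell. Parp6 and Parp8, related mono-ADP-ribosyltransferases, fell by 0.45 ± 0.068 and 0.47 ± 0.055 on the log2 scale (edgeR adjusted p = 0.000846 and 0.000196). Parp16, a membrane protein of the endoplasmic reticulum, fell by 0.66 ± 0.13 (adjusted p = 0.00309), a call lost on leaving out AAV-ctrl replicate 1 (adjusted p = 0.0523). Parp2, the closest relative of Parp1 in DNA repair, had a log2 fold change of -0.16 and did not pass (adjusted p = 0.0627), though it fell by limma on FPKM (0.0256), with T cell scaling (0.0279), with library size alone (0.0216) and with upper-quartile factors (0.0221). The vault member Parp4 (0.06), Parp11 (0.08), the aryl hydrocarbon receptor target Tiparp (0.00150) and the tankyrases Tnks (-0.11) and Tnks2 (-0.04) did not pass. Parp11 passed upward without AAV-IL-27 replicate 1 (0.21, adjusted p = 0.0428). Scaled to T cell markers, 3 family members rose and 5 fell, with Parp3 (adjusted p = 0.287) and Zc3hav1 (adjusted p = 0.805) among those that no longer passed. The family median was -0.02 with upper-quartile factors, library size alone or limma and -0.12 with T cell scaling. Under the same settings, in that order, the median of all genes was -0.056, -0.055, -0.041 and -0.16. A change of scaling shifts both medians by nearly the same amount, so their order under the scalings was fixed by the main test. The family median was -0.06 without AAV-IL-27 replicate 3, when the median of all genes was -0.00529. Without AAV-ctrl replicate 1 they were -0.00318 and -0.00305.

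The make-up of PARP transcripts per length shifted more than their sum. The 16 genes summed to 465 and 470.2 FPKM in AAV-IL-27, against 439.5 and 439.6 FPKM in AAV-ctrl. Parp9, Parp10, Parp12 and Parp14 together made up 26.2% and 26.3% of that sum in AAV-IL-27, against 17.2% and 17.7% in AAV-ctrl. Parp1 made up 7.27% and 7.62% in AAV-IL-27, against 10.9% and 10.5% in AAV-ctrl.

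**Figure D2:**
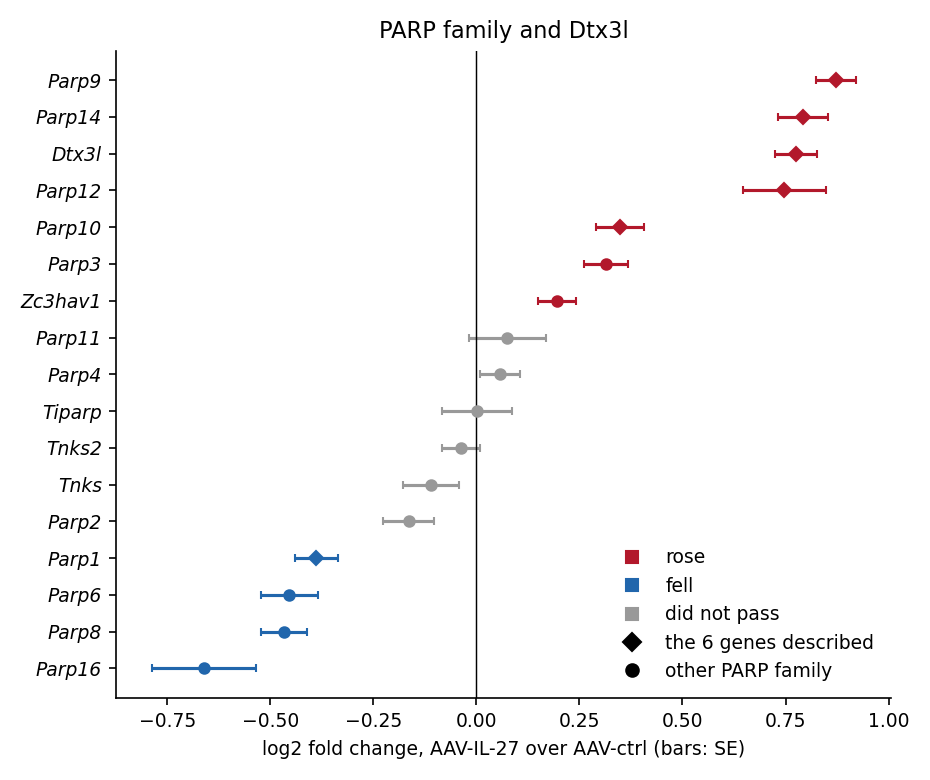
Log2 fold change, AAV-IL-27 over AAV-ctrl (x axis), of the 16 PARP family genes and Dtx3l (y axis); bars are SE, diamonds the 6 genes described, and red, blue and grey mark genes that rose, fell or did not pass at an adjusted p of 0.05. Parp9, at 0.87, is at the top, and Parp16, at -0.66, at the bottom.

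Within 100 kb of Parp14, Dtx3l or Parp9 there are 6 other protein-coding genes, all tested, and none of them rose in the test or its alternatives. Hspbap1, which ends 3429 bases before Parp14, fell by 0.30 ± 0.099 (edgeR adjusted p = 0.0401), and Wdr5b fell by 0.42 ± 0.13 (adjusted p = 0.0276). Both calls were lost by DESeq2 (adjusted p = 0.294 for Hspbap1 and 0.193 for Wdr5b). That of Hspbap1 was also lost with the replicate block (0.0506) and on leaving out AAV-IL-27 replicate 3 (0.12), AAV-ctrl replicate 1 (0.172) and AAV-ctrl replicate 3 (0.187). That of Wdr5b was lost on leaving out AAV-IL-27 replicate 1 (0.0699), AAV-ctrl replicate 1 (0.0608) and AAV-ctrl replicate 3 (0.247). Kpna1, an importin that begins 10666 bases after Parp9, had a log2 fold change of -0.13 (adjusted p = 0.0756), Slc49a4 one of -0.19 (0.07), Fam162a one of 0.21 (0.184) and Ccdc58 one of 0.05 (0.821). Kpna1 and Slc49a4 fell with upper-quartile factors (adjusted p = 0.0203 and 0.0277), library size alone (0.0206 and 0.0281) and T cell scaling (0.0394 and 0.0248).

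The neighbours of the other 3 genes were mixed. Of 7 protein-coding genes within 100 kb of Parp10, 6 were tested, Grina rose by 0.54 ± 0.054 (edgeR adjusted p = 7.28e-05), and Plec and Smpd5 fell. Plec, which shares exon bases with Parp10 in the GENCODE annotation, fell by 0.19 ± 0.052 (adjusted p = 0.0171), opposite in sign to Parp10. That call was lost on leaving out AAV-IL-27 replicate 1 (log2 fold change -0.15), AAV-ctrl replicate 1 (-0.16) or AAV-ctrl replicate 3 (-0.23). Smpd5 fell by 0.61 ± 0.13 (adjusted p = 0.0061), a call lost on leaving out AAV-ctrl replicate 1 (0.0678) and AAV-ctrl replicate 3 (0.0565). Oplah (-0.49), Exosc4 (-0.05) and Gpaa1 (0.11) did not pass. Beside Parp12, Kdm7a fell by 0.26 ± 0.051 (adjusted p = 0.00351, and 0.0624 without AAV-ctrl replicate 3) and Tbxas1 had 0.24 (adjusted p = 0.443). Of the 3 genes near Parp1, Lin9 was tested and had 0.22 (adjusted p = 0.0627).

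**Figure D3:**
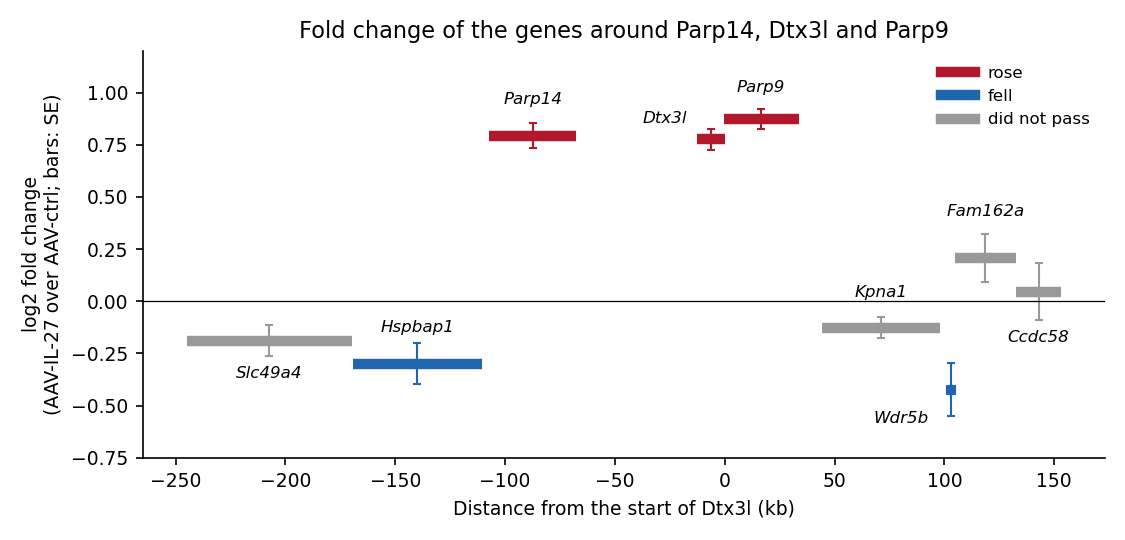
Log2 fold change, AAV-IL-27 over AAV-ctrl (y axis, bars are SE), of the protein-coding genes around Parp14, Dtx3l and Parp9, drawn to scale by distance from the start of Dtx3l in kb (x axis). Parp14, Dtx3l and Parp9, in red at 0.79, 0.78 and 0.87, stand above their 6 neighbours, which lie between -0.42 and 0.21.

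Genes that pass on or restrain interferon signals were mostly higher. Of 18, 12 rose (66.7%, against 21.3% of all genes tested), 2 fell (11.1%, against 17.7%) and 4 did not pass (median log2 fold change 0.32). The 12 include Socs1 (1.94 ± 0.11) and Usp18 (1.58 ± 0.088), which restrain the signal. Irf1, an interferon-induced transcription factor, stood at 251 and 235 FPKM in AAV-IL-27, against 115 and 113 FPKM in AAV-ctrl, with no overlap (1.14 ± 0.051, edgeR adjusted p = 5.04e-07). Stat2, a transcription factor of type I interferon signalling, rose by 0.60 ± 0.051 (adjusted p = 2.56e-05). Irf9, which joins Stat2 in the complex induced by type I interferon, rose by 0.22 ± 0.063 (adjusted p = 0.0241), a call lost on leaving out AAV-IL-27 replicate 3 (0.0559) and AAV-ctrl replicate 3 (0.235). By DESeq2 (0.0599), with upper-quartile factors (0.0663), with library size alone (0.0626), scaled to T cell markers (0.694) and by limma on FPKM (0.106) it did not pass either. The 2 that fell were Ifngr2, a chain of the interferon gamma receptor (-0.78 ± 0.12, adjusted p = 0.00247), and the kinase gene Jak1 (-0.29 ± 0.052, adjusted p = 0.0023), a call lost on leaving out AAV-ctrl replicate 3 (0.057), when 1 of the list fell. Scaled to T cell markers, 6 of the 18 rose and 2 fell.

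Antiviral interferon-stimulated genes gave a median of 0.53, below the log2 fold change of Parp9, Dtx3l, Parp14 and Parp12 and above that of Parp10. There were 38 in the test, and 12 missed the threshold. Of the 38, 25 rose (65.8%, against 21.3% of all genes tested) and 1 fell (2.63%, against 17.7%). Scaled to T cell markers, 20 of the 38 rose and 2 fell. Among the 25, Bst2 is also counted with the dendritic cell markers and Usp18 with the genes that pass on or restrain interferon signals. Zbp1, a sensor of Z-form nucleic acids, rose by 1.62 ± 0.049 (edgeR adjusted p = 5.98e-08) and Samhd1, which depletes nucleotides, by 0.88 ± 0.044 (adjusted p = 1.01e-06). Trim34a fell by 0.31 ± 0.097 (adjusted p = 0.0457), a call lost on leaving out AAV-IL-27 replicate 1 (0.0998) and AAV-ctrl replicate 1 (0.198), with no filter (0.0695) or with the replicate block (0.134).

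Of the proteins that erase or read ADP-ribose, listed together with Hpf1, 16 were in the test. Of these, 5 rose (31.2%, against 21.3% of all genes tested), 2 fell (12.5%, against 17.7%) and 9 missed the threshold (median -0.06), shares near those of all genes. The 5 include Hpf1, which is neither an eraser nor a reader. Hpf1, the factor that directs Parp1 to serine residues, stood at 38.0 and 41.2 FPKM in AAV-IL-27, against 28.8 and 30.9 FPKM in AAV-ctrl (0.37 ± 0.063, edgeR adjusted p = 0.0017), thus opposite in sign to Parp1. Hpf1 did not pass when scaled to T cell markers (adjusted p = 0.162). Parg, which degrades ADP-ribose chains, had a log2 fold change of -0.04 (adjusted p = 0.709). Gdap2, a macrodomain protein, rose by 0.31 ± 0.072 (adjusted p = 0.00882), and Oard1, an ADP-ribose hydrolase, and Rnf146, a ubiquitin ligase that reads ADP-ribose chains, fell by 0.23 ± 0.073 (adjusted p = 0.0334) and 0.18 ± 0.060 (adjusted p = 0.0422).

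These small calls depended on the libraries and the tool. On leaving out AAV-ctrl replicate 1, 1 of the list rose and 1 fell, and on leaving out AAV-ctrl replicate 3, 1 rose and none fell, as by DESeq2. Scaled to T cell markers, none rose and 4 fell, and with upper-quartile factors, library size alone or limma 3 rose and 3 fell. Gdap2 lost its call on leaving out either AAV-ctrl library (adjusted p = 0.073 for replicate 1 and 0.0665 for replicate 3), by DESeq2 (0.112) and with T cell scaling (0.37). Oard1 and Rnf146 lost theirs on leaving out AAV-IL-27 replicate 3 (0.118 and 0.116), AAV-ctrl replicate 1 (0.142 and 0.318) and AAV-ctrl replicate 3 (0.156 and 0.0734), and by DESeq2 (0.263 and 0.225). In the absence of AAV-IL-27 replicate 3 none of the list fell, and without replicate 1 of that group 3 rose and 3 fell.

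Of 22 genes of single-strand break and base excision repair, where Parp1 works, 8 rose (36.4%, against 21.3% of all genes tested), 3 fell (13.6%, against 17.7%) and 11 did not pass (median -0.03). The 8 include Parp3 and Hpf1, which were counted above as well. Xrcc1, the scaffold recruited by the chains that Parp1 makes, stood at 22.2 and 21.6 FPKM in AAV-IL-27, against 25.4 and 25.0 FPKM in AAV-ctrl, and did not pass (-0.15 ± 0.061, edgeR adjusted p = 0.0898), though it fell with upper-quartile factors (0.0303), library size alone (0.0301), T cell scaling (0.0403) and limma on FPKM (0.0315). Neil3, a DNA glycosylase of proliferating cells, rose by 1.84 ± 0.15 (adjusted p = 1.89e-05), and Lig1, the ligase of DNA replication, by 1.05 ± 0.062 (adjusted p = 2.32e-06). The glycosylases Neil1 and Mbd4 fell by 0.44 ± 0.095 (adjusted p = 0.00528) and 0.28 ± 0.076 (adjusted p = 0.018). Neil1 lost its call on leaving out AAV-ctrl replicate 1 (0.0783), and Mbd4 lost its call on leaving out AAV-IL-27 replicate 1 (0.0849), AAV-ctrl replicate 1 (0.147) and AAV-ctrl replicate 3 (0.0618), and by DESeq2 (0.13). On leaving out AAV-IL-27 replicate 3, 5 of the list fell, on leaving out AAV-IL-27 replicate 1 or AAV-ctrl replicate 3, 1 fell, and on leaving out AAV-ctrl replicate 1, 5 rose and 0 fell. By DESeq2 5 rose and 1 fell, with upper-quartile factors or library size alone 7 rose and 6 fell, by limma 7 rose and 5 fell, and scaled to T cell markers 3 rose and 7 fell.

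Among 11 genes in the test that make or carry NAD, the substrate of PARPs, 2 rose (18.2%), 3 fell (27.3%) and 6 missed the threshold (median -0.01), shares near the 21.3% and 17.7% of all genes tested. Nampt, the rate-limiting enzyme of NAD salvage, stood at 27.8 and 26.9 FPKM in AAV-IL-27, against 16.2 and 14.9 FPKM in AAV-ctrl, with no overlap (0.87 ± 0.058, edgeR adjusted p = 5.45e-06). Nmnat2, which joins the nucleotides of NAD, rose by 0.64 ± 0.16 (adjusted p = 0.0112), a call lost on leaving out AAV-IL-27 replicate 1 (0.0504) and AAV-ctrl replicate 1 (0.108). Slc25a51, the mitochondrial NAD carrier, fell by 0.30 ± 0.056 (adjusted p = 0.00269). Qprt, an enzyme of NAD synthesis from tryptophan, fell by 0.76 ± 0.19 (adjusted p = 0.0127), a call lost on leaving out AAV-ctrl replicate 1 (0.105) and AAV-ctrl replicate 3 (0.0733), and by DESeq2 (0.0866). On leaving out AAV-IL-27 replicate 1, 1 of the list rose, on leaving out AAV-ctrl replicate 1, 1 rose and 1 fell, and on leaving out AAV-ctrl replicate 3, or by DESeq2, 1 fell.

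**Figure D4:**
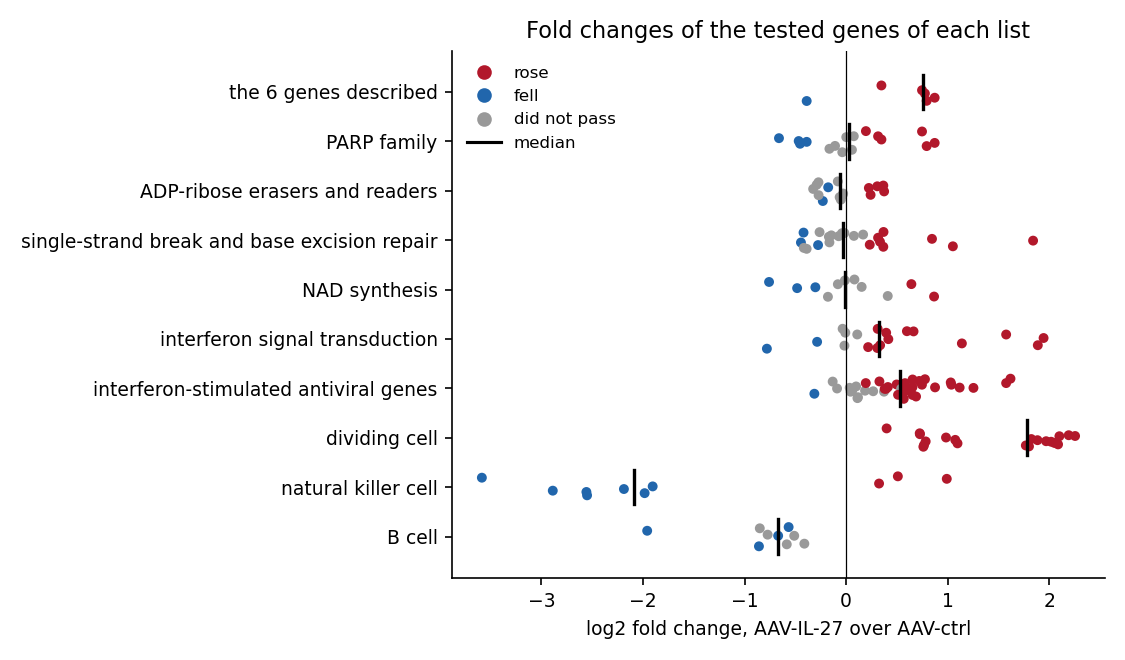
Log2 fold change, AAV-IL-27 over AAV-ctrl (x axis), of each tested gene of the lists named at the left; red, blue and grey mark genes that rose, fell or did not pass, and black lines are medians. Of the lists drawn, dividing-cell genes sit farthest right, with a median of 1.79, natural killer genes farthest left, with -2.09, and the PARP family median is 0.03; the neutrophil list, with a median of 5.73, is not drawn.

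The genes whose pattern over the 4 libraries was nearest to each of the 6 were ranked by the Euclidean distance between mean-centred log2 CPM (depth-scaled counts) among 9370 well-expressed genes. Parp14 was nearest to Pgam1 (distance 0.0348) and Rmi2 (0.0549), Dtx3l to Mcm3 (0.0166) and Mms22l (0.0276), and Parp9 to Ak3 (0.0218) and Aars (0.0374). Parp12 was nearest to Atpif1 (0.0281) and Gabarapl1 (0.0371), Parp10 to Atp5c1 (0.00998) and Tor2a (0.0163), and Parp1 to Emp3 (0.0102) and Tmod3 (0.0141). None of these 12 genes is a PARP, a family with 16 genes in the test, so its absence says little. With 2 libraries a group, this distance largely follows the fold change already tested. The log2 fold change was 0.87 for both Ak3 and Parp9, and -0.39 for both Emp3 and Parp1. Among the 6 themselves the closest pair was Parp14 and Dtx3l (0.111): Dtx3l ranked 17 among 9369 genes for Parp14, and Parp14 ranked 54 for Dtx3l. Parp9 ranked 62 for Dtx3l, and Dtx3l ranked 63 for Parp9. Closeness did not keep to chromosome 16: Parp12, on chromosome 6, ranked 106 for Parp9 (0.153), ahead of Parp14 at 129 (0.166). Parp10 ranked 1125 and Parp1 8485 for Parp9.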

How the data were processed

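RNA from 4 libraries was sequenced on DNA nanoballs after Trizol extraction, per the labels' protocols, which name both poly(A) RNA and ribosomal RNA removal. Expected counts for each gene in each library were deposited by the authors. The second set of values they deposited carries no unit in its header and was taken as FPKM, because its ratio to the count follows the summed counts. Deposited group means were left aside. Build GRCm38.p6 and the tools RSEM 1.2.12, Bowtie2 2.2.5, HISAT2 2.0.4 and DESeq2 1.4.5 are listed, with no role, per the submitters' processing notes.

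Expected counts were rounded to whole numbers, filtered with filterByExpr (12887 of 17039 genes kept), scaled by TMM and tested with edgeR 4.0.16 (robust quasi-likelihood fit, no block) in R 4.3.3. The SE is the log2 fold change over the square root of F, and 95% intervals use the test's degrees of freedom. DESeq2 1.42.0 and limma 3.58.1 (on log2(FPKM + 1)) were alternatives. The edgeR fit was run on simulated data before use. Lists have no set test. Positions and promoters are RefSeq's, matched by gene number for 16921 genes.

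Total counts limit precision mainly for Parp12. Each library is 1 mouse, as the design text counts 4 mice. As a check for a library deposited more than once, counts of same-group libraries were compared, and no pair was within sampling noise (chi-square over its degrees of freedom 6.47 for AAV-IL-27, 2.49 for AAV-ctrl). Replicate numbers 1 and 3 occur in both groups but nothing says that they pair mice. The 6 genes, the lists and the rule for named genes were chosen with earlier results of these data known. Genes named were the 6, the PARP family, Stat2, Irf1, Irf9, Xrcc1, Parg, Hpf1 and Nampt, the 2 smallest p-values per direction in each other list, leading cell markers, genes within 100 kb and the 2 nearest patterns; results of some genes under this rule are not given here. The promoter motifs were not in the written plan.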

Additional observations from a re-analysis of the deposited data

How the results depend on the processing

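Under 12 alternatives (4 scalings, no filter, DESeq2, limma on FPKM, the replicate block and each library left out) the 6 genes kept their directions, and all passed except Parp10 scaled to the T cell markers (0.19, adjusted p = 0.198). Under the 4 scalings the kept directions were fixed in advance, as a scaling shifts all genes by nearly the same small amount. The log2 fold change ranged from 0.72 to 0.89 for Parp9, 0.62 to 0.81 for Dtx3l, 0.64 to 0.86 for Parp14, 0.58 to 0.81 for Parp12, 0.19 to 0.38 for Parp10 and -0.54 to -0.35 for Parp1. The count over all genes moved more than these. The main test called 5023 genes, 2745 higher and 2278 lower, and DESeq2 called 3185, of them 1212 lower. T cell scaling called 1454 higher. With a library left out, between 2635 and 4886 genes changed, between 1646 and 2632 were higher and between 989 and 2254 lower. The lowest numbers were without AAV-ctrl replicate 1, and 2743 changed without AAV-ctrl replicate 3. The highest adjusted p with a library left out was 0.0334, for Parp10. With the replicate block 4971 genes changed and each of the 6 kept its call. The numbers share no labelled origin, and same-numbered libraries deviated together with r = -0.000711 across genes. Leaving out a library moved the log2 difference of the Parp14 to Parp1 ratio between 1.11 and 1.253, and that of Parp9 to Dtx3l between 0.0435 and 0.143. With 2 libraries a group, and 1 where a library is left out, the spread is borrowed from other genes and the lone library is assumed to vary like the rest. The cause of these shifts was not tested.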
